A study of Mus musculus with 4 samples.

Results

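The genes described here burn ketone bodies and branched-chain amino acids in mitochondria, and 2 further genes lie on the opposite strand of 2 of them. The 10 members, of 24906 genes in the files, were taken by name: the enzymes Oxct1, Bdh1, Acat1, Bckdha, Bckdhb, Hibadh, Aldh6a1 and Mmut, the noncoding gene BC037032 that faces Oxct1, and Bbof1 that faces Aldh6a1. They correspond to 13 of the 41449 transcripts counted, and 9 of the 10 genes had at least 1 count in some library. The counts of all transcripts of a gene were added up.

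The heart takes up ketone bodies made by the liver, oxidises beta-hydroxybutyrate to acetoacetate, loads acetoacetate with coenzyme A and splits it to acetyl-CoA. Leucine, isoleucine and valine are first stripped of their amino group, then decarboxylated by the branched-chain ketoacid dehydrogenase, and then broken down along a branch of their own to acetyl-CoA, acetoacetate or propionyl-CoA. Both routes feed the citrate cycle, and both are discussed as fuel supplies of the failing heart.

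The comparison is between 4 groups, each with 1 library made from 3 mouse hearts combined at an age of 12 weeks. The dC10mut hearts came from cMyBP-CΔC10mut mice, transgenic for the 25-bp variant of MYBPC3 and used as a model of hypertrophic cardiomyopathy, and NTG hearts from their nontransgenic controls, both labelled C57BL/6. The tt hearts came from cMyBP-C(t/t) mice, a model of dilated cardiomyopathy, and the control hearts from the mice set against them, both labelled FvB/N. Cardiac myosin binding protein C, altered in both models, is a thick-filament protein of the sarcomere. Neither the promoter of the transgene nor the sex of the animals is stated in those labels.

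The counts assigned to transcripts were few, at 187365 in dC10mut, 170543 in NTG, 186420 in tt and 176633 in control. In CPM, the usual unit of counts scaled to library size, here with TMM factors, 1 count equals 5.19 to 6.24 CPM, and a count of 0 is read as a level of up to 3 counts, or 15.6 to 18.7 CPM. With 1 library per group, differences have no replicate check, and the 95% intervals cover counting error only. Of 10 cardiomyocyte markers, 8 had counts, summing to 34284 CPM in dC10mut and 28276 CPM in NTG, and to 25037 CPM in tt and 27653 CPM in control, while Tnnt2 and Myl3 were at 0 in every library. They were thus highest in dC10mut. Adipocyte and red cell markers were at 0 throughout, as Tnnt2 and Myl3 were, and these zeros are not read as absence of the cells. Endothelial markers (5 of 7 with counts) summed to 230 counts in dC10mut and 224 in NTG, but to 134 in tt and 262 in control, with Pecam1 and Egfl7 at 0, and their part in the tt results was not tested. Macrophage markers (5 of 6 with counts) summed to 46 counts in dC10mut and 15 in NTG, and to 15 in tt and 42 in control, with Adgre1 at 0, and their part was not tested either. Mural markers (4 of 6 with counts, Pdgfrb and Myh11 at 0) summed to 940 CPM in dC10mut and 636 CPM in NTG, and to 675 CPM in tt and 885 CPM in control. Fibroblast markers (6 of 6) summed to 123 CPM in dC10mut and 175 CPM in NTG, and to 109 CPM in tt and 203 CPM in control. Of 4 atrial markers only Nppa had counts, at 118 CPM in dC10mut and 56.2 CPM in NTG, and 83.0 CPM in tt and 330 CPM in control. The part of the cardiomyocyte, mural, fibroblast and atrial markers in the results was not tested. The X-linked Xist locus (Xist and Tsix) held 155 counts in dC10mut and 0 in NTG, and 173 in tt and 0 in control. Ddx3y, on the Y chromosome, had a log2 ratio of -5.93, mutant against control, in the edgeR test of both pairs described below. Genotype and a difference in the sex of the pooled animals therefore cannot be told apart in either pair. In these bulk samples, fewer cells of a type and less RNA per cell cannot be told apart.

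What a row of these files can show depends on how reads were assigned. The library kit keeps the strand, but no source used here says whether counting used it, or in which orientation, so reads of a gene and of a gene opposite it cannot be told apart. A value given for BC037032, Bbof1 or any gene with a partner is therefore that of its row, which may hold reads of the gene it faces. With the orientation unknown, the row of a gene without a partner, such as Acat1 or Hibadh, may also lack that gene's own reads. Genes that face exonic sequence on the other strand were 21% of the genes placed on the annotation and held between 66.7% and 70.2% of the counts. At the Xist locus, Tsix lies opposite Xist. In the edgeR test of both pairs described below, the log2 ratio, mutant against control, was 10.19 for Tsix and 6.42 for Xist. What these values say of the orientation of the counting was not tested. Counts are also kept per transcript, and how reads shared by transcripts of a gene were treated is not given. Of the 36 genes of a wider pathway list, 18 of the 19 with 1 transcript in the files had a count, against 4 of the 17 with more than 1 transcript. Bckdhb, Bcat2, Dbt, Pcca and Pccb, all with more than 1 transcript, held 0 counts in all 4 libraries. A 0 in such a gene is therefore not read as absence.

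Oxct1 encodes the succinyl-CoA transferase that activates acetoacetate, the committed step of ketone use. The gene lies on chromosome 15 (4026383 to 4155344, plus strand, GRCm38), with 17 exons in a transcript of 3527 bases. BC037032, a noncoding RNA gene of 2 exons on the minus strand (4021686 to 4027393), begins inside the first intron of Oxct1. Its first exon (4026019 to 4027393) covers all 467 bases of Oxct1 exon 1, which is 13.2% of the Oxct1 transcript and 14.2% of that of BC037032. Promoter windows (RefSeq, GRCm38.p6, 250 bases before to 50 after the start) of both genes are shown because the Oxct1 window, chr15:4026178-4026477 on the plus strand, lies wholly inside that exon, whereas the BC037032 window is chr15:4027357-4027656 on the minus strand. Capitals mark the bases from the RefSeq start on, at 4026428 for Oxct1 and 4027406 for BC037032. The exons given above are those of GENCODE and start elsewhere, at 4026383 for Oxct1 and 4027393 for BC037032.
Oxct1: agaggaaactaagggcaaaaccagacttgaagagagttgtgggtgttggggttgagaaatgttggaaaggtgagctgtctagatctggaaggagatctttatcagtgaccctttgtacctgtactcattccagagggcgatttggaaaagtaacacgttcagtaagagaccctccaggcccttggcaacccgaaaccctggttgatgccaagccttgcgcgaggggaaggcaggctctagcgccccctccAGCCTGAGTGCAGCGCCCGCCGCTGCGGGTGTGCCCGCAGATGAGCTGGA
BC037032: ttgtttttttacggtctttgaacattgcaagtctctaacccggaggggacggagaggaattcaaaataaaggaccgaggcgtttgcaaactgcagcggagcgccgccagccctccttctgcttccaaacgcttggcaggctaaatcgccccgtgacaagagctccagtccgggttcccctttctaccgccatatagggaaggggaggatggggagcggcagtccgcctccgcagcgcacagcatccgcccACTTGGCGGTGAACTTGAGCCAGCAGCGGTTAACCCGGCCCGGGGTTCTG

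**Figure D1:**
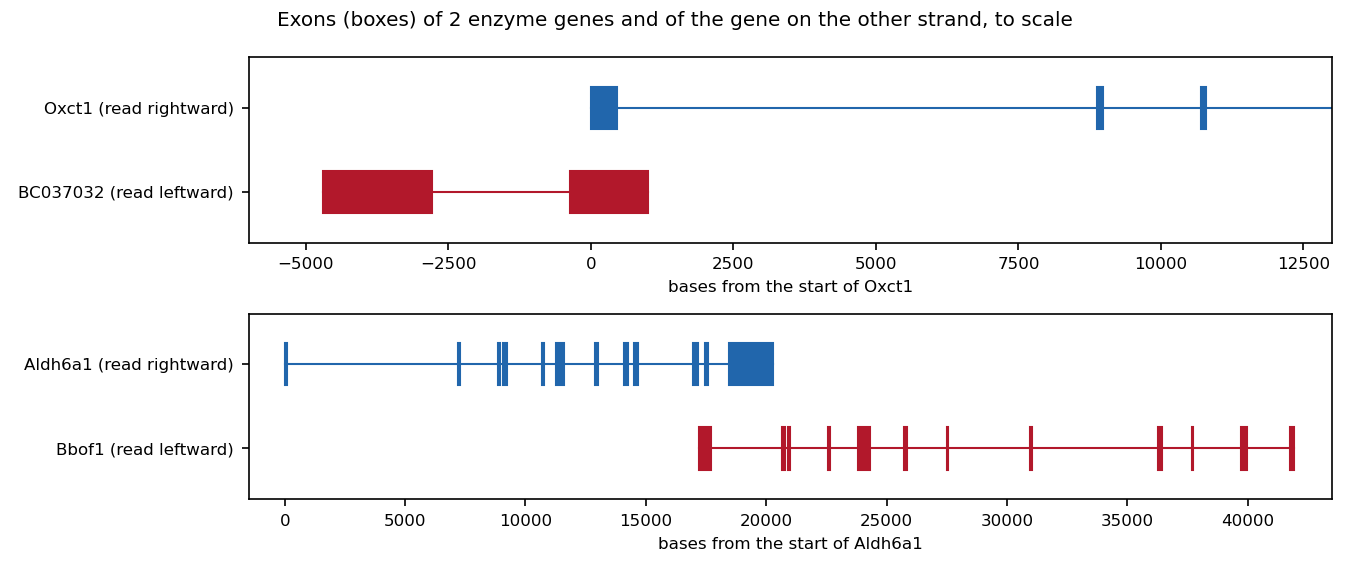
Exons of Oxct1 and BC037032 (top) and of Aldh6a1 and Bbof1 (bottom), drawn to scale along the distance in bases from the start of the enzyme gene (x axis), 1 gene per row. The first exon of BC037032 covers the whole 467-base first exon of Oxct1, and the last exon of Bbof1 lies opposite 99 bases of Aldh6a1 exons.

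Oxct1 held 222 counts in dC10mut and 130 in NTG, and 274 in tt and 184 in control. Both mutant libraries were thus above both control libraries, although the 95% intervals of dC10mut (1035 to 1352 CPM) and control (870 to 1168 CPM) overlapped. The dC10mut level was 1186 CPM (exact binomial 95% interval 1035 to 1352) against 811 CPM in NTG (678 to 963), a 1.46-fold difference (log2 ratio 0.55, 0.23 to 0.87). The tt level was 1422 CPM (1259 to 1600) against 1011 CPM in control (870 to 1168), a 1.41-fold difference (log2 ratio 0.49, 0.22 to 0.77). Neither ratio passed the rule for a call, an absolute log2 ratio of at least 1 with an interval that excludes equality. Between the control libraries themselves, which also differ in strain label, the control level of Oxct1 was 1.25-fold that of NTG (log2 ratio 0.32, -0.01 to 0.65). That interval excluded equality with library totals (0.45, 0.12 to 0.79) and, with its lower bound at 0.00, with DESeq2 size factors (0.33).

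BC037032 held 453 counts in dC10mut and 202 in NTG, and 346 in tt and 131 in control. It rose 2.49-fold in tt (1795 CPM, against 720 CPM in control, log2 ratio 1.32, 1.02 to 1.62). In dC10mut it stood at 2420 CPM, against 1260 CPM in NTG, a 1.92-fold difference just under the 2-fold rule (log2 ratio 0.94, 0.70 to 1.19). Scaled to plain library totals, the log2 ratio was 1.03 and passed it. The control libraries also differed, with 1.75-fold less BC037032 in control than in NTG (log2 ratio -0.81, -1.14 to -0.48). The tt level lay between those of dC10mut and NTG, and control was the lowest of the 4 libraries.

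The ratio of BC037032 counts to Oxct1 counts within a library is free of library scaling. It was 2.04 in dC10mut and 1.55 in NTG, a ratio of ratios of 1.31 (exact conditional 95% interval 0.990 to 1.74). It was 1.26 in tt and 0.712 in control, a ratio of ratios of 1.77 (1.34 to 2.36). BC037032 and Oxct1 thus differed unequally between tt and control by more than counting error, while the interval of the dC10mut pair included equal ratios. The control and NTG libraries differed in it as well, at 0.712 in control and 1.55 in NTG (ratio of ratios 0.459, 0.330 to 0.635).

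Aldh6a1, the methylmalonate semialdehyde dehydrogenase at the end of the valine branch, held 1 count in dC10mut and 1 in NTG, and 1 in tt and 0 in control. All 4 libraries lie under the limit of 3 counts, so no ratio is given. The gene has 2 transcripts in the files and lies on chromosome 12 (84430717 to 84451003, minus strand). Bbof1, a basal body orientation factor known from motile cilia, lies tail to tail with it (84409071 to 84433780, plus strand). The counted Bbof1 transcript of 2187 bases has 99 bases opposite Aldh6a1 exons, the GENCODE exons of all Bbof1 transcripts face 336 bases of Aldh6a1, and the RefSeq gene record of Bbof1 extends further into Aldh6a1, to 84441428.

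Bbof1 held 289 counts in dC10mut and 170 in NTG, and 337 in tt and 152 in control. It rose 2.09-fold in tt (1749 CPM, against 835 CPM in control, log2 ratio 1.06, 0.79 to 1.35). It was 1.45-fold higher in dC10mut (1544 CPM, against 1061 CPM in NTG, log2 ratio 0.54, 0.26 to 0.82), under the 2-fold rule. Both mutant libraries were above both control libraries, and control was 1.27-fold lower than NTG (log2 ratio -0.34, -0.67 to -0.02). With library totals the interval of that last ratio spanned equality (log2 ratio -0.21, -0.54 to 0.11). Within libraries, Bbof1 counts per Oxct1 count were 1.30 in dC10mut and 1.31 in NTG (ratio of ratios 0.996, 0.739 to 1.34). They were 1.23 in tt and 0.826 in control (1.49, 1.13 to 1.96), so that this ratio differed between tt and control by more than counting error. It also differed between control and NTG, at 0.826 in control and 1.31 in NTG (0.632, 0.456 to 0.875).

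Bdh1 also has a gene on its other strand whose row held more counts. Bdh1 encodes the mitochondrial beta-hydroxybutyrate dehydrogenase, which opens ketone use (chromosome 16, 31428748 to 31458901, plus strand, for the transcript with counts). It held 17 counts in dC10mut and 6 in NTG, and 11 in tt and 9 in control. The log2 ratio was 1.22 in the dC10mut pair, with an interval that spans equality (-0.13 to 2.91), and 0.20 in the tt pair (-1.20 to 1.66). Gm15743, on the opposite strand (31427876 to 31429776), overlaps 240 of its 3122 bases and held 227 counts in dC10mut and 194 in NTG, and 204 in tt and 117 in control. Its log2 ratio was 0.00 in the dC10mut pair (-0.28 to 0.29) and 0.72 in the tt pair (0.38 to 1.06), with control again the lowest library. Cenpq, opposite Mmut, held fewer counts than the gene it faces, with 4 in dC10mut and 1 in NTG, and 5 in tt and 2 in control.

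**Figure D2:**
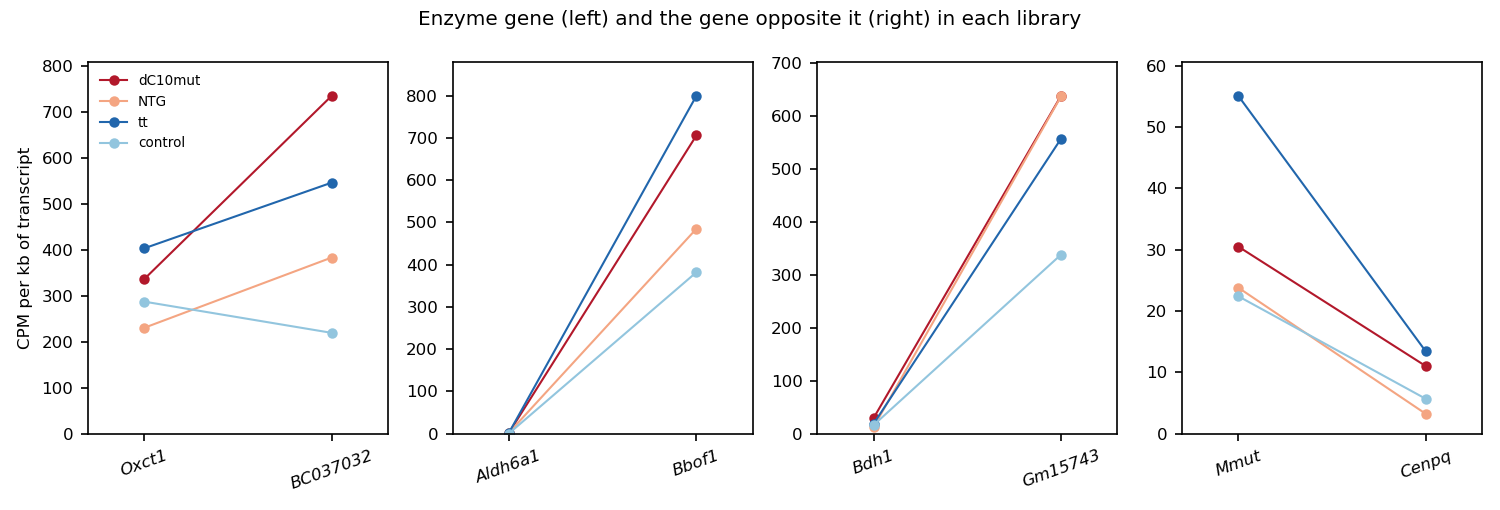
Level of each enzyme gene (left point) and of the gene opposite it (right point) in CPM per kb of transcript (y axis), 1 line per library. Gm15743 and Bbof1 stand far above Bdh1 and Aldh6a1 in all 4 libraries, BC037032 stands above Oxct1 in dC10mut, NTG and tt but not in control, and Cenpq stands below Mmut.

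Acat1, the mitochondrial acetoacetyl-CoA thiolase, closes both ketone use and the isoleucine branch, and has no exon on the other strand of its locus (chromosome 9, 53580522 to 53610382, minus strand). It held 152 counts in dC10mut and 96 in NTG, and 132 in tt and 119 in control. The dC10mut library was the highest, at 1.35-fold NTG (log2 ratio 0.44, 0.06 to 0.82). With TMM factors taken over genes that have no opposite-strand exon, that interval spanned equality (0.32, -0.05 to 0.71). The tt level was 1.05-fold that of control (log2 ratio 0.07, -0.30 to 0.44). Slc16a1, the monocarboxylate transporter that carries ketone bodies and lactate into cells and belongs to the wider list, held 51 counts in dC10mut and 28 in NTG (log2 ratio 0.63, -0.05 to 1.36), and 48 in tt and 60 in control (-0.40, -0.98 to 0.17).

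Bckdha and Bckdhb encode the alpha and beta chains of the decarboxylase of the branched-chain ketoacid dehydrogenase, the committed step of this catabolism. Bckdha (chromosome 7, 25629946 to 25658981, minus strand) held 30 counts in dC10mut and 27 in NTG, and 21 in tt and 39 in control. It was level in the dC10mut pair (log2 ratio -0.07, -0.87 to 0.73). It was 1.94-fold lower in tt, just short of the 2-fold rule (log2 ratio -0.96, -1.82 to -0.17). Annotated GENCODE exons of B3gnt8 lie opposite 61.7% of the Bckdha transcript. The B3gnt8 transcript that held counts (25627638 to 25629492) ends before Bckdha and does not face it, and had at most 3 counts in a library. Bckdhb (chromosome 9, 83925145 to 84124239, plus strand, for the longer of 2 transcripts) held 0 counts in all 4 libraries.

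Hibadh, the hydroxyisobutyrate dehydrogenase of the valine branch (chromosome 6, 52546228 to 52640389, minus strand), has no opposite exon. It held 45 counts in dC10mut and 22 in NTG, and 38 in tt and 38 in control. The NTG library was thus the low one of the 4. The dC10mut level was 1.74-fold that of NTG (log2 ratio 0.80, 0.04 to 1.61), with a lower bound of -0.07 under TMM factors from genes with no opposite-strand exon. The tt level did not differ from control beyond counting error (log2 ratio -0.08, -0.77 to 0.60).

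Mmut, the cobalamin-dependent methylmalonyl-CoA mutase, passes propionate carbon from valine and isoleucine into the citrate cycle as succinyl-CoA (chromosome 17, 40934685 to 40961988, plus strand). It held 21 counts in dC10mut and 14 in NTG, and 39 in tt and 15 in control. Mmut rose 2.41-fold in tt (202 CPM, against 82.4 CPM in control, log2 ratio 1.27, 0.40 to 2.26). The dC10mut ratio was smaller and its interval spanned equality (log2 ratio 0.35, -0.68 to 1.45). The tt library was the highest, and the 3 others held 14 to 21 counts. Its interval (144 to 277 CPM) overlapped those of dC10mut (69.4 to 171 CPM) and NTG (47.8 to 147 CPM). Cenpq, which faces Mmut head to head over its 95-base first exon, held at most 5 counts.

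**Figure D3:**
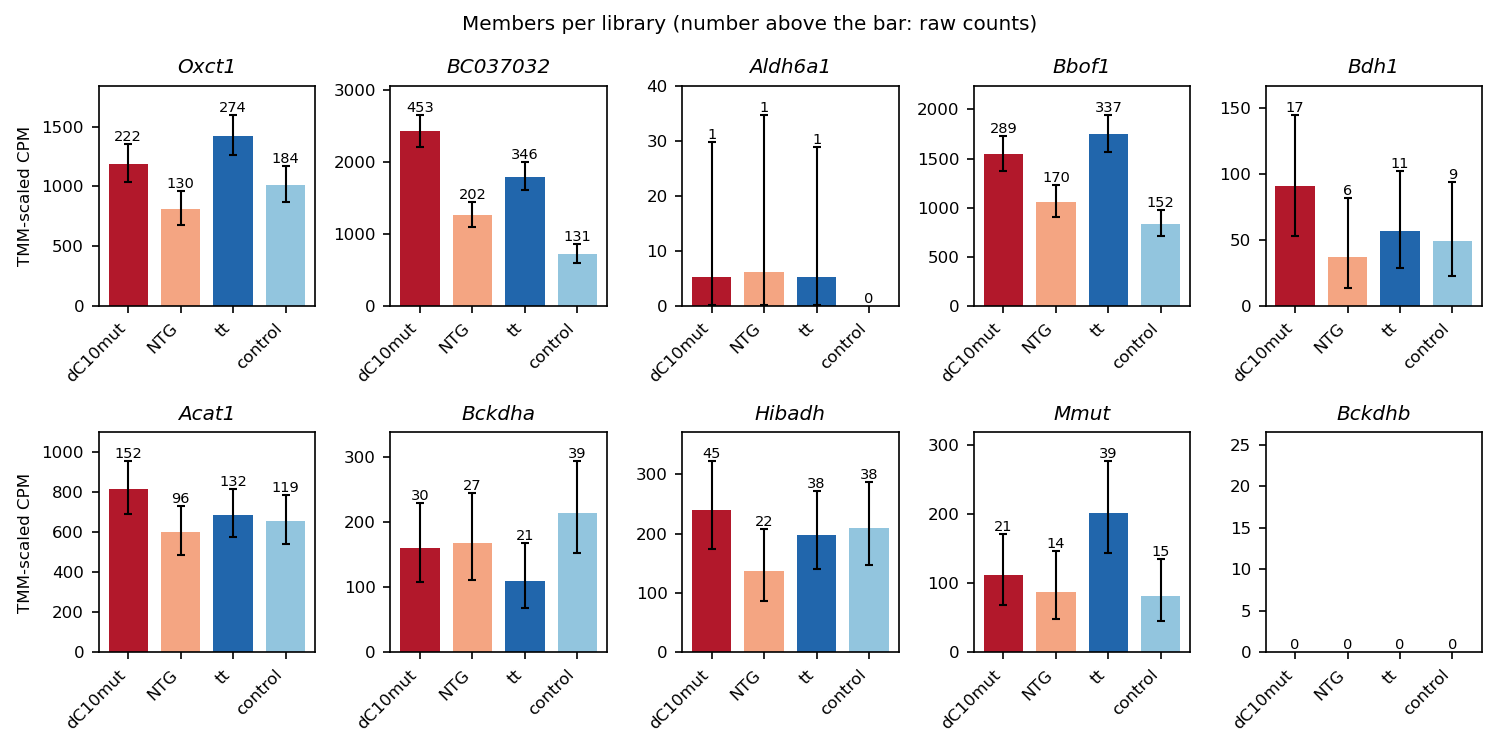
TMM-scaled CPM (y axis, from 0) of the 10 members in the 4 libraries, with exact binomial 95% intervals as error bars (none drawn at 0 counts) and the raw count above each bar. Oxct1, BC037032 and Bbof1 are higher in both mutant libraries than in both control libraries, with overlapping intervals for Oxct1 in dC10mut and control. Mmut is highest in tt, with an interval that overlaps those of dC10mut and NTG, and Bckdhb is at 0 throughout.

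Per kb of transcript and averaged over the 4 libraries, the order of levels was Bbof1 (593 CPM per kb), BC037032 (471), Oxct1 (314), Acat1 (202), Hibadh (107), Bckdha (85.8), Mmut (33.0), Bdh1 (18.8), Aldh6a1 (1.23) and Bckdhb (0). The ranges over libraries overlapped between Bbof1 (382 to 800) and BC037032 (219 to 735), and between BC037032 and Oxct1 (230 to 403). Acat1 (176 to 238) overlapped Oxct1 only at the edge. Hibadh (75.2 to 132) lay wholly below Acat1 and overlapped Bckdha (57.4 to 113). Mmut (22.4 to 55.1) lay below Bckdha and overlapped Bdh1 (12.0 to 29.1). The row of Bdh1, the first enzyme of ketone use, had the lowest level of the 3 ketone enzymes among the members. Bdh1 has 2 transcripts, of which 1 held every count, while Oxct1 and Acat1 have 1 each. The order of these rows may therefore not be that of the enzymes' RNA.

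Against all genes, the members stand as follows. In the dC10mut pair, of the 8 members with at least 20 counts over both libraries, 0 were called higher and 0 lower under the 2-fold rule. Of the 1766 genes at that depth 4.98% were called higher and 7.30% lower (1.79% and 2.53% of all 8026 genes with a count). In the tt pair 3 of 8 such members were called higher (BC037032, Bbof1 and Mmut) and 0 lower, where 7.09% of 1863 genes were called higher and 4.08% lower (2.71% and 1.58% of 8240). Of those 3, only Mmut is an enzyme of the pathway. Between control and NTG, 0 of 7 such members were called either way, where 3.21% of 1713 genes were higher and 4.14% lower (1.40% and 1.69% of 8143). Aldh6a1 and Bckdhb had too few counts in every comparison, and Bdh1 between control and NTG.

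With a 1.5-fold rule over genes with at least 100 counts in a pair, a rule chosen after the data were seen, 1 of 4 such members was higher in dC10mut (BC037032) and 2 of 4 in tt (BC037032 and Bbof1). At that depth 7.87% of genes were higher and 17.9% lower in dC10mut, and 13.0% were higher and 16.8% lower in tt. Oxct1 and Acat1 missed that rule in both pairs. At 1.5-fold and at least 20 counts, 2 of 8 members were higher in dC10mut (BC037032 and Hibadh) and 0 lower, where 7.30% of genes were higher and 12.5% lower. In tt 3 of 8 were higher (BC037032, Bbof1 and Mmut) and 1 lower (Bckdha), where 10.8% of genes were higher and 10.1% lower. Between control and NTG 0 of 7 were higher and 1 was lower (BC037032), where 5.31% of genes were higher and 8.70% lower. No member was called higher in both pairs under the 2-fold rule, a pattern found in 0.433% of the 1616 genes with at least 20 counts in each pair.

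The wider list of 36 genes, which holds the 8 enzymes, was written with an earlier report on these data in view. In the dC10mut pair 16 of them had at least 20 counts, of which 14 had a positive log2 ratio, 0 were called higher and 0 lower. Their median log2 ratio was 0.44, against -0.03 over all 1766 genes, of which 48.2% had a positive ratio. In the tt pair 16 had such counts, 7 with a positive ratio, with 1 called higher (Mmut) and 0 lower. Their median was -0.07, against -0.03 over 1863 genes, of which 47.9% were positive. Between control and NTG, which shares a library with each of the pairs, 12 of 14 were positive with a median of 0.33, against -0.06 over 1713 genes, of which 44.9% were positive. Most list genes thus had their positive ratios against NTG, in dC10mut and in control.

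By branch, ketone use (Oxct1, Bdh1, Acat1, Slc16a1 and 2 genes at 0) summed to 442 counts in dC10mut and 260 in NTG (log2 ratio 0.54, 0.32 to 0.77), and to 465 in tt and 372 in control (0.24, 0.04 to 0.44). The leucine branch (Ivd, the isovaleryl-CoA dehydrogenase, Mccc1 and Mccc2, the methylcrotonyl-CoA carboxylase, and Auh, a hydratase) summed to 103 counts in dC10mut and 60 in NTG (0.55, 0.08 to 1.04), and to 92 in tt and 89 in control (-0.03, -0.47 to 0.40). The isoleucine branch (Acadsb, Echs1 and Hsd17b10) summed to 115 in dC10mut and 82 in NTG (0.26, -0.16 to 0.69), and to 127 in tt and 91 in control (0.40, -0.00 to 0.80). The dehydrogenase and its regulators summed to 128 in dC10mut and 98 in NTG (0.16, -0.23 to 0.56), and to 138 in tt and 133 in control (-0.03, -0.38 to 0.33). The valine branch (Acad8, Hibch, Hibadh and Aldh6a1) summed to 71 counts in dC10mut and 37 in NTG (0.71, 0.12 to 1.33), and to 61 in tt and 57 in control (0.01, -0.53 to 0.56). The propionate branch, nearly all of it Mmut, summed to 23 in dC10mut and 15 in NTG (0.38, -0.61 to 1.44), and to 41 in tt and 15 in control (1.34, 0.48 to 2.33). The interval thus excluded equality for the ketone, leucine and valine sums in the dC10mut pair, and for the ketone and propionate sums in the tt pair. Ketone use also differed between control and NTG (0.33, 0.10 to 0.57), by more than between tt and control, with Slc16a1 alone at 0.91 (0.25 to 1.62). Other scalings of these sums were tried after the values were seen. The leucine interval of the dC10mut pair spanned equality with TMM factors from genes with no opposite-strand exon (0.44, -0.03 to 0.93), and the isoleucine interval of the tt pair excluded it with DESeq2 size factors (0.42, 0.02 to 0.82) and, with its lower bound at 0.00, with library totals (0.40). The 10 members together summed to 1230 counts in dC10mut and 668 in NTG (0.66, 0.52 to 0.79), and to 1199 in tt and 687 in control (0.72, 0.58 to 0.86). The 8 enzymes, without BC037032 and Bbof1, summed to 488 counts in dC10mut and 296 in NTG (0.50, 0.29 to 0.71), and to 516 in tt and 404 in control (0.27, 0.08 to 0.46). Between control and NTG their log2 ratio was also 0.27 (0.05 to 0.49), and 0.18 (-0.04 to 0.40) with TMM factors from genes with no opposite-strand exon. Without BC037032, Bbof1 and Oxct1 they summed to 266 in dC10mut and 166 in NTG (0.46, 0.17 to 0.74), and to 242 in tt and 220 in control (0.05, -0.21 to 0.32).

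List genes outside the members with at least 10 counts in a library were within 2-fold or had intervals that span equality in both pairs. Dld, the dehydrogenase subunit that this complex shares with pyruvate dehydrogenase, held 86 counts in dC10mut and 64 in NTG, and 108 in tt and 82 in control. Echs1, an enoyl-CoA hydratase, held 70 counts in dC10mut and 45 in NTG, and 80 in tt and 52 in control (log2 ratio 0.53, 0.02 to 1.07 in the tt pair). Ivd held 45 counts in dC10mut and 25 in NTG, and 47 in tt and 46 in control. Bckdk, the kinase that switches the ketoacid dehydrogenase off, held 12 counts in dC10mut and 7 in NTG, and 9 in tt and 12 in control. Mccc1 held 25 counts in dC10mut and 17 in NTG, and 16 in tt and 21 in control, and faces Mccc1os. Mccc2 held 17 counts in dC10mut and 8 in NTG, and 13 in tt and 5 in control. Auh, Hsd17b10 and Hibch, a hydrolase of the valine branch, each held between 10 and 20 counts in every library, and Acadsb, the short branched-chain acyl-CoA dehydrogenase, between 22 and 30.

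**Figure D4:**
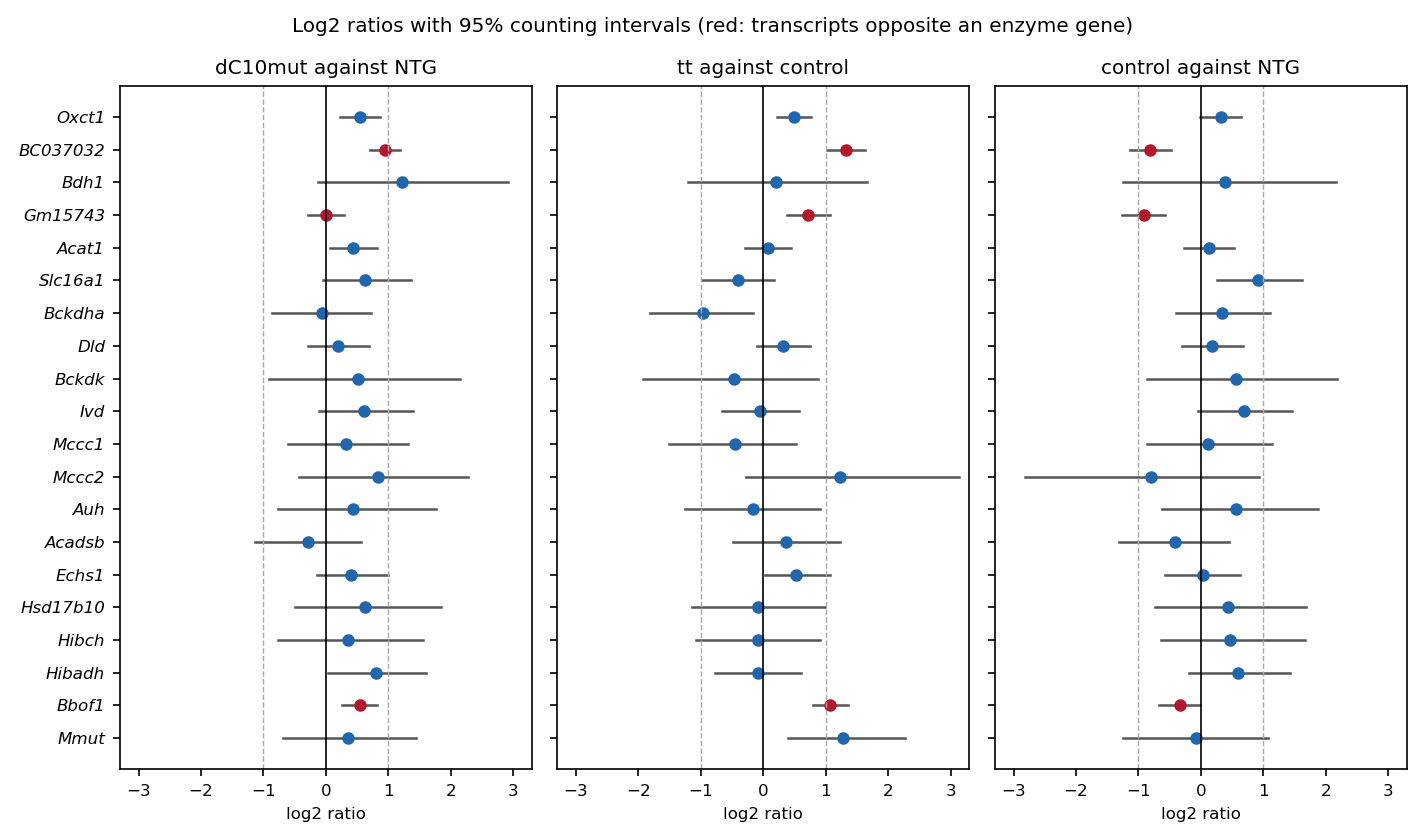
Log2 ratios (x axis; points) with 95% counting intervals (lines) for members, list genes with at least 10 counts in a library and Gm15743 (y axis) in the 3 comparisons; dashed lines mark 2-fold, and red points are transcripts opposite an enzyme gene. Most enzyme points lie right of 0 in the dC10mut pair and on both sides of 0 in the tt pair. In the tt pair BC037032, Bbof1, Mmut and Mccc2 lie beyond 2-fold, Mccc2 with an interval that spans equality.

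Whether both models move the members alike was asked through the difference of their log2 ratios, tt pair minus dC10mut pair. For Oxct1 it was -0.06 (-0.47 to 0.36), from log2 ratios of 0.49 in the tt pair and 0.55 in the dC10mut pair. For Bbof1 it was 0.52 (0.14 to 0.91) and for BC037032 0.38 (0.00 to 0.75), both larger in the tt pair. The BC037032 difference was 0.29 with library totals and 0.47 with TMM factors from genes with no opposite-strand exon. Whether the intervals at those scalings exclude 0 was not tested. For Mmut (0.92, -0.36 to 2.20), Bckdha (-0.89, -1.95 to 0.17), Hibadh (-0.88, -1.85 to 0.10), Acat1 (-0.37, -0.88 to 0.14) and Bdh1 (-1.02, -2.82 to 0.78) the interval spanned 0. Such intervals excluded 0 in 26.2% of 1616 genes.

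A difference common to both models was sought with the quasi-likelihood F-test of edgeR, the pair serving as block, with 1 residual degree of freedom per gene. It treats the mutants of 2 different models as repeats of 1 contrast. The Xist locus had counts in the mutant library only in both pairs, so the test cannot tell genotype from a difference in sex. Tsix, Xist and Ddx3y were among the genes it called. BC037032 passed, with a log2 ratio of 1.13 (SE 0.288) and a Benjamini-Hochberg adjusted p of 0.0347, higher in 2 of 2 pairs, as 1 of 20 genes called among 5769 (0.347%). Its call was lost with no filter on low counts (adjusted p = 0.0577), without the block (adjusted p = 0.365) and with DESeq2 (adjusted p = 0.9998), which called 0 genes and gave 43 with an unadjusted p under 0.05. Bbof1 had a log2 ratio of 0.80 (edgeR adjusted p = 0.452), Mmut of 0.86 (edgeR adjusted p = 0.93) and Oxct1 of 0.52 (edgeR adjusted p = 0.93), none past the threshold. Acat1, Bckdha, Bdh1 and Hibadh each had an edgeR adjusted p of 0.988. Of the 14 other list genes tested, 0 passed (smallest edgeR adjusted p 0.93, 0 with an unadjusted p under 0.05, and 0 with DESeq2).

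The genes whose pattern over the 4 libraries was most like a member's were ranked by Euclidean distance of centred log2 levels, among genes with at least 100 counts in all. For Oxct1 these were Gpd1, a glycerol-phosphate dehydrogenase (distance 0.12), Ppp1cb, a catalytic phosphatase subunit (0.14), and Unc45b, a myosin chaperone (0.15), where the median distance over 760 genes was 0.89. BC037032 lay 1.11 from Oxct1, farther than the 0.63 between BC037032 and Bbof1 and the 0.55 between Bbof1 and Oxct1. Nearest to BC037032 by this rule were Pomt2, an O-mannosyltransferase (0.26), Pex14, a peroxisomal import protein (0.37), and Apoa2, an apolipoprotein (0.38), where the median over 761 genes was 1.44. Nearest to Bbof1 were Cluh, a binding protein of mRNAs for mitochondrial proteins (0.11), Pigf (0.13) and Dnaja2, a co-chaperone (0.15), where the median was 1.06. Nearest to Mmut were Ddx3x, an RNA helicase (0.24), Ppp1r14c, a phosphatase inhibitor (0.26), and Pnpla8, a phospholipase (0.30), where the median was 1.23. Several of these, such as Pomt2 (opposite Gstz1) and Pigf (opposite Rhoq), also have a gene on the other strand.

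Promoter windows in the RefSeq table matched 8 of the 10 members, with 11 windows among 32851. On both strands, the ERR half-site AAGGTCA was in 0 of the 11 (4.72% of all windows) and the E-box CACGTG in 0 (7.15%). The NRF1 site, named for a regulator of many mitochondrial genes and searched with 1 free base near its middle, was in 2 windows, those of Bbof1 and Hibadh (4.60% of all windows), 22 and 66 bases before the start. Those 2 windows, chr12:84408818-84409117 on the plus strand and chr6:52640251-52640550 on the minus strand, are shown with that site in capitals. A match is a match of letters only.
Bbof1: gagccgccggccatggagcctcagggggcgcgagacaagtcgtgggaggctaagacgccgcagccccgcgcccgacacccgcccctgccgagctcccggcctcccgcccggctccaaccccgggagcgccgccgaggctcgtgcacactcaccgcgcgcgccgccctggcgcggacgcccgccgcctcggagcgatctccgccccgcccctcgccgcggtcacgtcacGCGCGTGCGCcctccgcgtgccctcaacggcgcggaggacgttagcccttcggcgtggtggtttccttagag
Hibadh: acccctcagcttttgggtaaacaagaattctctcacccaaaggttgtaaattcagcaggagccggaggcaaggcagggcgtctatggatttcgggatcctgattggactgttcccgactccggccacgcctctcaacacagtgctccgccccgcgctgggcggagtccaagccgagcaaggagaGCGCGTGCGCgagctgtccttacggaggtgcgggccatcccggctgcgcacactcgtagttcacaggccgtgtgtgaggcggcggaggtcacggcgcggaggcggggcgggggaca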

How the data were processed

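RNA of pooled hearts was sequenced as stranded poly(A) libraries, per the labels' protocols. The authors deposited raw counts of reads for each RefSeq transcript, made with STAR and HTSeq on mm10, per the submitters' processing notes; versions, counting mode and strand setting are not given in the sources used here. All files list the same 41449 transcripts; 41351 matched a symbol and 35347 were placed on GENCODE M21 (GRCm38). No row lacked a transcript name.

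Counts were summed per symbol and scaled with TMM factors (edgeR 4.0.16, R 4.3.3). Log2 ratios used a prior count of 0.5; their 95% intervals are exact Clopper-Pearson conditional binomial intervals (scipy 1.17.1), and the interval of a difference between pairs is a normal approximation. Intervals and floors cover counting error only, as PCR copies are not independent molecules. The common test used genes with at least 5 counts in all and counts in 2 libraries; DESeq2 1.42.0 was the alternative. The ratio rule and the edgeR test were tested on simulated counts. The members, lists and rules were chosen with earlier results of these data known. Named were the members, genes opposite them, list genes with at least 10 counts in a library and the 3 genes nearest to each of 4 members, leaving out clone, predicted and pseudogene symbols. The 1.5-fold rule at 100 counts and the comparisons between 2 genes were chosen after the values were seen.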

Additional observations from a re-analysis of the deposited data

Results flagged for a closer look

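The log2 ratio of Bbof1 differed between the pairs by 0.52 (tt pair minus dC10mut pair), with a counting interval of 0.14 to 0.91, on 337 counts in tt and 152 in control, and 289 in dC10mut and 170 in NTG. That of BC037032 differed by 0.38, with a lower bound at 0.00, on 346 counts in tt and 131 in control, and 453 in dC10mut and 202 in NTG. The BC037032 difference was 0.29 with library totals and 0.47 with TMM factors from genes with no opposite-strand exon, each without a tested interval. Of the other genes, Slc16a1 differed by -1.03 (-1.89 to -0.18), Gm15743 by 0.71 (0.29 to 1.14) and Mccc1os by 1.11 (0.04 to 2.19). In Bbof1, BC037032, Gm15743 and Mccc1os the control library is the lowest of the 4. The intervals hold counting error only, and 26.2% of 1616 genes had such an interval that excludes 0.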

How the results depend on the processing

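Over 160 recomputations of the members' ratios and pair differences, with other scalings, a prior count of 2 or the most counted transcript, every value stayed inside its counting interval. Each member with counts held them in 1 transcript, so the last of these could not change a value. Across scalings, exclusion of equality changed for the ratios of Acat1 and Hibadh in the dC10mut pair. It also changed for those of Oxct1 and Bbof1 between control and NTG. Whether exclusion of 0 changed for the pair differences was not tested. TMM factors from genes with no opposite-strand exon lowered all genes by 0.11 in the dC10mut pair (log2 shift -0.11), and library totals raised them by 0.13 between control and NTG. The list median was 0.33 instead of 0.44 in the dC10mut pair under the first, and 0.46 instead of 0.33 between control and NTG under the second. With library totals 1 member (BC037032) was called higher in dC10mut, and 1 list gene higher in control than in NTG, each instead of 0. With a 1.5-fold threshold 2 members (BC037032 and Hibadh) were higher in dC10mut, and Hibadh was also the 1 list gene called higher there. Bckdha, both a member and a list gene, was lower in tt. In control 1 member (BC037032) was lower and 1 list gene (Slc16a1) higher than in NTG. Each of these counts was 0 under the 2-fold rule. The tt pair had 3 members called higher under every alternative tried. The common test called 11 genes with no filter, 1 without the block and 0 with DESeq2, instead of 20. With 1 library per group there were no replicates to pair, and the block is the pair of model and control. Leaving out a library leaves no group to compare.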
